A study of Bos grunniens x Bos taurus and Bos grunniens with 6 samples.

Results

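Interferon response genes are the genes whose RNA rises when a cell senses interferon. Here they were taken as every gene whose symbol in the deposited expression table was ISG15, MX1, MX2, RSAD2, IFI6, IFI44, IFIT2, IRF7 or IRF9, with capitals ignored and every gene identifier kept apart. This gave 8 genes of the 18918 in the table, which carry 7 of the 9 symbols, because IFI6 stands on 2 identifiers. MX1 and IRF7 were not analysed here under their own symbols. The gene with the symbol MX2 (ENSBGRG00000014066) is described in the same table as MX dynamin like GTPase 1, so its symbol and its description name different paralogs.

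The study compared the testis transcriptome of cattle-yak, whose males are sterile, with that of yak. The cattle-yak (C1, C2 and C3) were F1 males of a Jersey cattle sire and a Gannan yak dam from Xiahe County, and the yak (Y1, Y2 and Y3) were Gannan yak males from Linxia County. All 6 animals were 4 years old, and each gave 1 library. The testes of cattle-yak were obtained by castration and those of yak after euthanasia, so genotype, county and sampling cannot be told apart. Reads of both groups were mapped to the yak genome, and any difference in mapping between hybrid and yak transcripts is part of every comparison. The values are FPKM, the fragments of a gene divided by its length and by the fragments of the library, and they were not scaled between libraries. The library totals by which the fragments had been divided, recovered from the values, were 11834987 fragments for C1, 11175100 for C2 and 11600013 for C3, and 13136129 for Y1, 13104964 for Y2 and 12991641 for Y3.

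Interferons are secreted proteins that bind receptors on the cell surface, and the receptors act through Janus kinases on the STAT transcription factors. After type I interferon, STAT proteins and IRF9 form a complex that enters the nucleus and switches on a large set of antiviral genes, among them ISG15, the MX GTPases, RSAD2, IFI6, IFI44 and the IFIT genes. In the testis, interferon-induced antiviral proteins are made by Sertoli cells, Leydig cells and resident macrophages when they are stimulated, while germ cells respond little.

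Of the 8 interferon response genes, all passed the minimum mean of 0.5 FPKM, 4 were called higher in cattle-yak and 0 were called lower. A gene was called when its limma adjusted p was under 0.05 and its log2 (foldchange) of FPKM + 1 was beyond 1 in either direction. The genes called higher were IFI6 (ENSBGRG00000011996), IFI44, IRF9 and MX2, and ISG15, RSAD2, IFIT2 and the other IFI6 gene were not called. Over all 15042 genes tested, 33.4% were called higher and 20.8% lower, so calls in cattle-yak were frequent in the whole table. The median log2 (foldchange) of the 8 genes was 1.16, against 0.51 over all genes tested. With median-of-ratios scaling the medians were 0.71 and 0.01. When the values were centred on Sertoli markers, the medians were -0.97 and -1.62, a shift of each library that moves all genes alike and so leaves their distance of 0.64 as it is. This distance was 1.06 without C1 and 0.22 without C3. The IFI6 genes did not change direction with the centring, since ENSBGRG00000011996 was still called higher and ENSBGRG00000013875 was lower in both cases. The split of calls over all genes moved with these scalings, from 61.6% higher as deposited to 38.5% with median-of-ratios scaling (2624 genes higher and 4193 lower) and 0.366% with Sertoli centring. Because the tissue was measured in bulk, fewer cells of a type and less RNA per cell cannot be told apart.

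**Figure D1:**
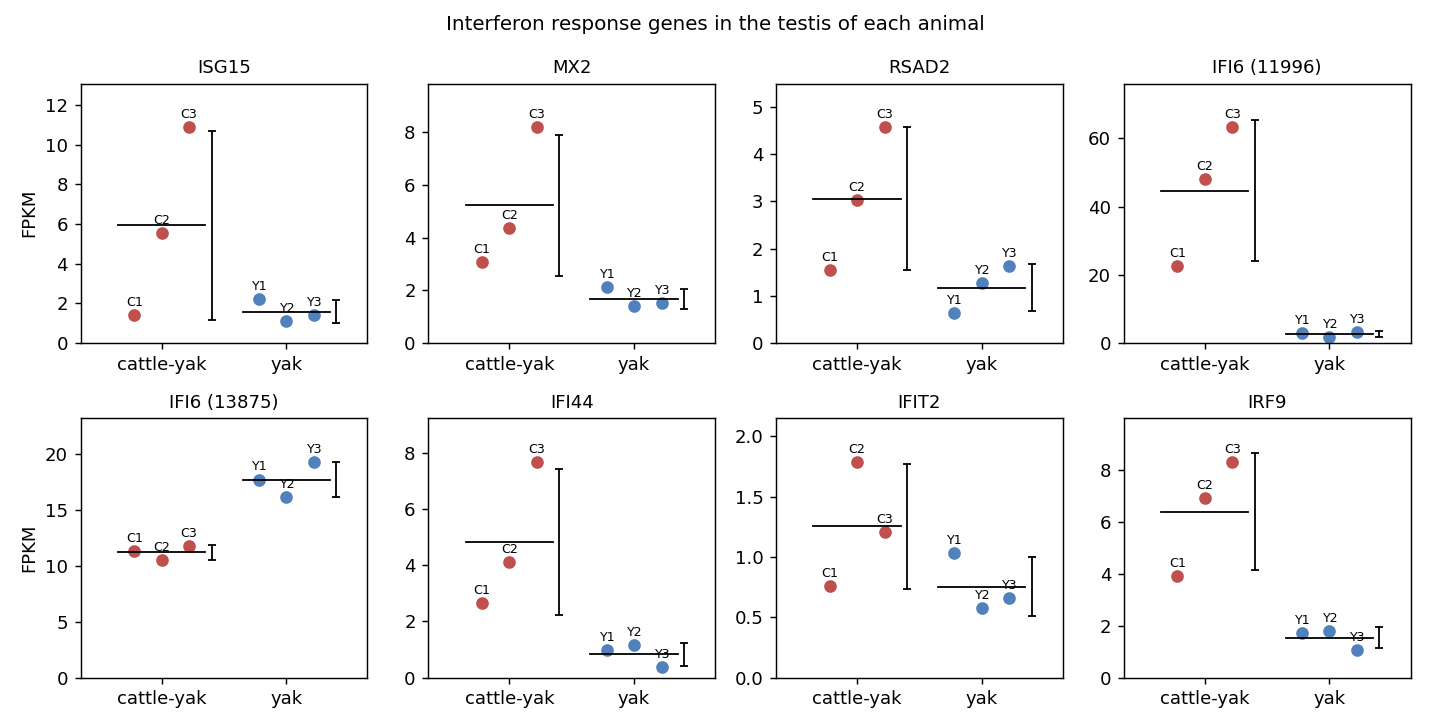
FPKM of the 8 interferon response genes in each cattle-yak (red, C1 to C3) and yak (blue, Y1 to Y3), on linear axes that start at 0. Points are animals, horizontal lines are means and bars are SD (n = 3); the last 5 digits of the identifier tell the IFI6 genes apart. IFI6 (ENSBGRG00000011996) reaches 63.4 FPKM in C3 and stays at or under 3.25 in yak, whereas the other IFI6 gene is lower in each cattle-yak than in each yak.

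The interferons that were found by symbol were near the limit of detection in both groups. The list of interferon ligands held 24 symbols, of which 6 were found, on 9 genes, and none reached the minimum for testing. The listed interferon alpha, tau, kappa, delta and lambda symbols stood on no gene, so nothing is said of them here. Of their 54 values, 32 were listed at 0, and the highest was 0.785 FPKM. IFNE, an epithelial type I interferon with the highest mean over the 6 animals, had 0.145, 0.615 and 0.148 FPKM in C1, C2 and C3 and 0.785, 0 and 0.529 in Y1, Y2 and Y3. IFNG, the type II interferon, had 0.337, 0 and 0.516 FPKM in cattle-yak and 0.304, 0.457 and 0.154 in yak. The groups overlapped in both genes, whose values rested on 0 to 6 fragments. IFNW1 (ENSBGRG00000002462), another type I interferon and the highest of the list in yak, was listed at 0 in every cattle-yak and had 0.647, 0.649 and 0.393 FPKM in Y1, Y2 and Y3, from 5, 5 and 3 fragments. It was named after its values were seen. The summed ligands were 0.482, 0.615 and 0.817 FPKM in cattle-yak and 2.01, 1.24 and 1.90 in yak, and this difference was not tested. IFNA17, an interferon alpha gene outside the list, had 0.722, 0.765 and 0 FPKM in cattle-yak and 0.488, 0 and 0 in yak, and with it the sums of the groups overlap. It was also named after its values were seen. The type I genes are close copies of each other, and the assignment of single fragments to them is uncertain.

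The receptors and the JAK-STAT proteins carry the signal into the cell, and the RNA of most of them was higher in cattle-yak as deposited. Of 11 genes, 10 were tested, 7 were called higher in cattle-yak and 0 lower, beside the 33.4% and 20.8% of all genes tested. The median log2 (foldchange) was 1.39 as deposited, 0.79 with median-of-ratios scaling and -0.74 after Sertoli centring. STAT2, a partner of IRF9, had 18.8, 22.0 and 19.5 FPKM in cattle-yak and 9.04, 5.97 and 7.29 in yak, and its log2 (foldchange) was 1.33 ± 0.16 (SE, n = 3; limma adjusted p = 7.4e-05). Every cattle-yak was above every yak. JAK1, the most abundant of the list, averaged 132 ± 12.5 FPKM (SD, n = 3) over the cattle-yak and 47.7 ± 2.31 over the yak, and its log2 (foldchange) was 1.45.

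The receptor chains IFNAR1, IFNGR1 and IFNGR2 were called with log2 (foldchange) values of 1.63, 1.66 and 1.64, and the kinase TYK2 with 1.14. IFNAR2, the other chain of the type I receptor, had 2.10, 2.99 and 2.40 FPKM in cattle-yak and 0.772, 1.25 and 0.655 in yak. Its log2 (foldchange) of 0.89 (adjusted p = 1.9e-03) stayed under the threshold, as did 0.85 of IL10RB and 0.61 of JAK2, although no values of these 3 genes overlapped between the groups. IFNAR2 was called without Y2 (1.02), with pseudocounts of 0.1 (1.42) and 0.01 (1.51), with TPM scaling (1.08) and with voom on fragments (1.51), and had 0.52 with median-of-ratios scaling, where it was not called. IFNLR1, a chain of the type III receptor, was at or under 0.0957 FPKM in all 6 animals and was not tested. With median-of-ratios scaling JAK1 (0.83), TYK2 (0.62, and 0.89 with quantile normalization) and STAT2 (0.76) were no longer called, and 4 genes of the list were called higher in all, where 2624 of all 15042 genes tested were called higher.

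IRF9, which gives the complex with STAT proteins its DNA binding, had 3.91, 6.91 and 8.31 FPKM in C1, C2 and C3 and 1.72, 1.81 and 1.07 in Y1, Y2 and Y3. C1 was the lowest cattle-yak and C3 the highest, and every cattle-yak was above every yak. The log2 (foldchange) was 1.50 ± 0.26 (SE, n = 3; limma adjusted p = 6.5e-04), at the percentile 82.0 of all genes tested. Groups that do not overlap in this direction were found in 53.9% of the genes tested, and in 4 of the 8 interferon response genes.

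IFI6 (ENSBGRG00000011996), a small membrane protein induced by type I interferon, showed the greatest difference of the 8 genes. It had 22.6, 48.1 and 63.4 FPKM in C1, C2 and C3 and 2.94, 1.77 and 3.25 in Y1, Y2 and Y3. The lowest cattle-yak was far above the highest yak. The 438 fragments of C1 gave a 95% Poisson interval of 20.6 to 24.9 FPKM, and the 1202 fragments of C3 gave 59.9 to 67.1. These intervals cover counting error only, and not the usual difference between animals. The log2 (foldchange) was 3.55 ± 0.35 (adjusted p = 2.6e-05), at the percentile 99.9 of all genes tested. It was called higher under every setting that was tried. After Sertoli centring, which moves all genes alike, its log2 (foldchange) was 1.42, so that call follows from the size of the change.

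IFI44, an interferon-induced cytoplasmic protein, had 2.67, 4.13 and 7.69 FPKM in cattle-yak and 0.970, 1.16 and 0.374 in yak. The groups did not overlap, and C3 was again the highest animal. Its log2 (foldchange) was 1.60 ± 0.32 (adjusted p = 1.7e-03). MX2, a dynamin-like GTPase that blocks virus replication, had 3.08, 4.37 and 8.20 FPKM in cattle-yak and 2.12, 1.39 and 1.51 in yak. C1 was the cattle-yak nearest to the yak, and no values overlapped. Its log2 (foldchange) was 1.14 ± 0.29 (adjusted p = 6.0e-03), and it was not called without C3 (0.82) or with median-of-ratios scaling (0.69).

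ISG15, a ubiquitin-like protein that is attached to other proteins, had 1.39, 5.55 and 10.9 FPKM in C1, C2 and C3 and 2.22, 1.11 and 1.40 in Y1, Y2 and Y3. C1 lay within the yak values and C2 and C3 above them, so the groups overlapped. The 9 fragments of C1 gave a Poisson interval of 0.635 to 2.63 FPKM and the 69 fragments of C3 gave 8.45 to 13.7. The log2 (foldchange) was 1.17 ± 0.51 with a 95% interval from -0.01 to 2.35, and the adjusted p of 0.063 missed the threshold. Without C1 the log2 (foldchange) was 1.79 (adjusted p = 6.1e-04) and the gene was called, and without C3 it was 0.64 (adjusted p = 0.183) and the gene was not called.

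RSAD2, an enzyme that makes a chain terminator of viral RNA synthesis, had 1.55, 3.03 and 4.58 FPKM in cattle-yak and 0.627, 1.26 and 1.62 in yak. C1 lay just under the highest yak, Y3, and the groups overlapped by these animals alone. The log2 (foldchange) was 0.86 ± 0.30 (adjusted p = 0.029), under the threshold of 1. It was 1.16 without C1 and 1.01 without Y3, and it was called in both cases. A smaller pseudocount of 0.1 gave 1.28, also called, since a pseudocount of 1 shrinks the change of low genes. It was also called with TPM scaling (1.02) and voom on fragments (1.33). With median-of-ratios scaling it was 0.46 and without C3 it was 0.59, and in neither case was it called. IFIT2, which binds foreign RNA, was the lowest of the 8 genes with 0.762, 1.79 and 1.21 FPKM in cattle-yak and 1.03, 0.573 and 0.656 in yak. C1 lay under Y1, and the log2 (foldchange) of 0.35 ± 0.21 (adjusted p = 0.157) did not pass.

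The other IFI6 gene (ENSBGRG00000013875) went against the rest. It had 11.3, 10.5 and 11.8 FPKM in C1, C2 and C3 and 17.7, 16.1 and 19.3 in Y1, Y2 and Y3. Every cattle-yak was under every yak, and the animals of each group were close to each other. The log2 (foldchange) was -0.61 ± 0.12 (adjusted p = 1.4e-03), which did not reach -1. With median-of-ratios scaling it was -1.20 and the gene was called lower. The table gives this gene no description, and its recovered length of 3001 bases differs from the 1634 bases of the IFI6 gene that was called.

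**Figure D2:**
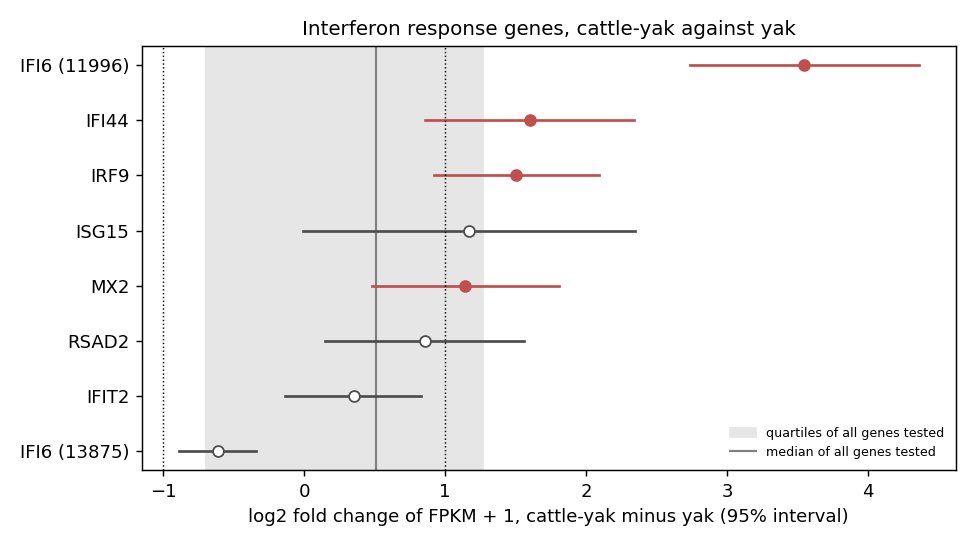
log2 (foldchange) of FPKM + 1 of the 8 interferon response genes, cattle-yak minus yak, with 95% intervals from limma. Filled red points were called, open points were not, dotted lines mark -1 and 1, and the grey band and line are the quartiles (-0.70 and 1.27) and the median (0.51) of all genes tested. After Sertoli centring the genes other than IFI6 (ENSBGRG00000011996, 3.55 here) lie below 0.

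By level per length, IFI6 (ENSBGRG00000011996) was the highest of the 8 genes in cattle-yak with 44.7 ± 20.6 FPKM (SD, n = 3), followed by the other IFI6 gene with 11.2 ± 0.673. IRF9 (6.38), ISG15 (5.93), MX2 (5.22), IFI44 (4.83), RSAD2 (3.05) and IFIT2 (1.25) came next by mean FPKM, and every neighbouring pair among these 6 genes overlapped over the animals. In yak the order began with the IFI6 gene that was not called, at 17.7 ± 1.62 FPKM, while the called one had 2.65 ± 0.777. MX2 (1.67), ISG15 (1.58), IRF9 (1.53), RSAD2 (1.17), IFI44 (0.834) and IFIT2 (0.753) followed, and neighbours overlapped from the second place on. The 2 IFI6 genes therefore stood in the reverse order in the groups.

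The cattle-yak differed among themselves in these genes. C1 was the lowest and C3 the highest cattle-yak in 6 of the 8 genes, against 14.3% of all genes tested, an arrangement that was chosen after the values were seen. The exceptions were IFIT2, where C2 was highest, and the IFI6 gene that was lower in cattle-yak, where C2 was lowest. The range between the cattle-yak had a median of 1.15 on the log2 (FPKM + 1) scale over the 8 genes and 0.32 over all genes tested. Among the yak the medians were 0.52 and 0.29. The median log2 (foldchange) of the 8 genes was 1.59 without C1 and 0.73 without C3.

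The same arrangement was counted in the other lists of the pathway. It held in 17 of 41 tested genes of other antiviral genes, 9 of 25 of antigen presentation and interferon gamma targets, 3 of 10 of the receptor list and 2 of 17 of nucleic acid sensing, beside the 14.3% of all genes tested. It held in 1 of 5 other IRF factors, 1 of 7 genes of ISG15 conjugation and 1 of 14 negative regulators. Differences between the lists were not tested. Spermatid markers had the opposite arrangement of C1 and C3, with summed levels of 111, 45.8 and 22.6 FPKM in C1, C2 and C3. The summed macrophage markers were 138, 183 and 196 FPKM in the same animals, and the arrangement held in 4 of their 9 tested genes. In CSF1R, CD68, AIF1 and CD14, by contrast, C3 was the lowest cattle-yak. The part of these cells in the spread between cattle-yak was not tested.

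**Figure D3:**
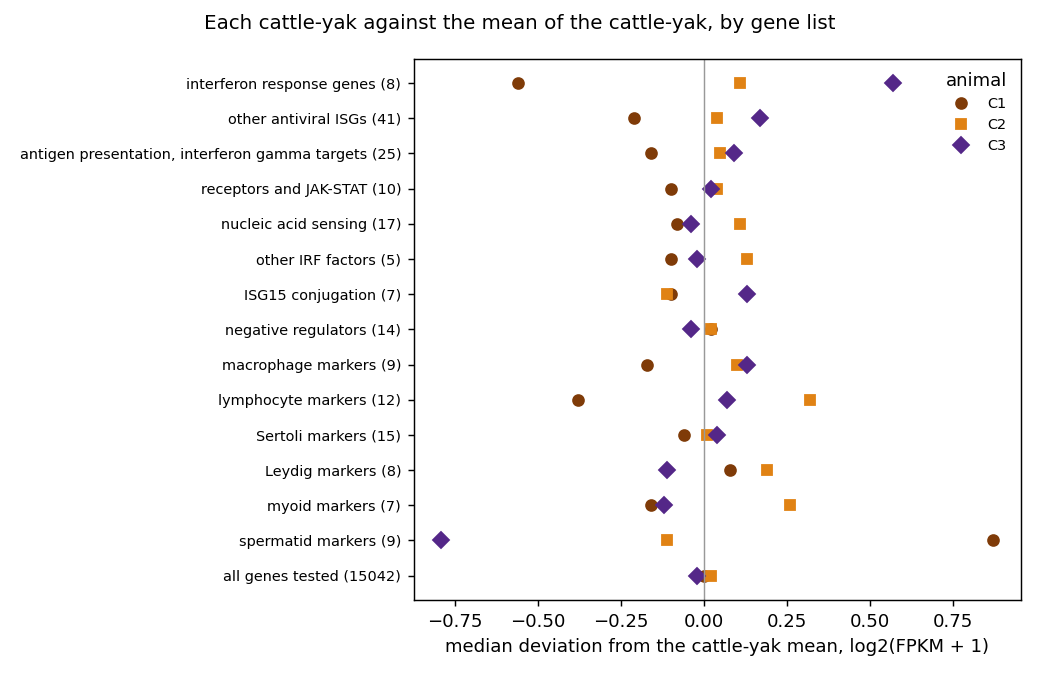
Median deviation of C1, C2 and C3 from the mean of the cattle-yak on the log2 (FPKM + 1) scale, for each gene list, with the number of tested genes in brackets. For the 8 interferon response genes C1 lies at -0.56 and C3 at 0.57, and for spermatid markers C1 lies at 0.87 and C3 at -0.79, while all genes tested lie near 0.

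Among the genes that start the response, a list held sensors of foreign nucleic acid and proteins that act with or below them. Of 17 tested, 8 were called higher and 1 lower, beside the 33.4% and 20.8% of all genes tested. With median-of-ratios scaling 5 were called higher and 1 lower, beside 2624 higher and 4193 lower of all 15042 genes. The median log2 (foldchange) as deposited was 0.90, or -1.23 after Sertoli centring. ADAR, an RNA editing enzyme and the most abundant of them in cattle-yak but not in yak, had 45.4, 54.6 and 47.8 FPKM in cattle-yak and 9.39, 7.80 and 9.44 in yak (log2 (foldchange) 2.35 ± 0.12, adjusted p = 9.3e-07). IFIH1, a sensor of long double-stranded RNA that is itself induced by interferon, had 3.41, 3.82 and 3.62 FPKM in C1, C2 and C3 and 19.9, 18.0 and 22.2 in Y1, Y2 and Y3. All cattle-yak were under all yak, and the log2 (foldchange) was -2.18 ± 0.13 (adjusted p = 1.7e-06). Mavs, the adaptor that IFIH1 signals through, had a log2 (foldchange) of 1.79.

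Of the other IRF factors, 2 of 5 tested were called higher and 0 lower, a share of 40.0% higher beside the 33.4% of all genes tested, with a median of 0.94 that was -1.19 after Sertoli centring. IRF1, a factor of the interferon gamma response, had 39.5, 46.7 and 41.5 FPKM in cattle-yak and 9.35, 9.98 and 5.50 in yak (log2 (foldchange) 2.27 ± 0.20, adjusted p = 1.4e-05). IRF2 followed with 1.84. IRF3, which acts directly below the sensors and was the most abundant in yak but not in cattle-yak, had 0.70 and was not called.

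Of 41 other antiviral genes tested, 19 were called higher and 3 lower, or 46.3% and 7.32% beside the 33.4% and 20.8% of all genes tested. With median-of-ratios scaling 17 were called higher and 4 lower, beside 2624 higher and 4193 lower of all 15042 genes. The median log2 (foldchange) as deposited was 0.94, or -1.19 after Sertoli centring. IFITM1, a membrane protein that blocks virus entry and the most abundant of the list in cattle-yak but not in yak, had 77.6, 103 and 142 FPKM in cattle-yak and 30.0, 23.2 and 17.4 in yak (log2 (foldchange) 2.13 ± 0.25, adjusted p = 6.8e-05). The highest log2 (foldchange) values were 2.40 of IFI27L2 and 2.35 of TRIM21, a cytosolic antibody receptor. Plscr1, a phospholipid scramblase, had 0.469, 0.373 and 0.120 FPKM in cattle-yak and 40.0, 27.1 and 39.0 in yak. Its log2 (foldchange) was -4.77 ± 0.19 (adjusted p = 3.2e-07), and the groups were far apart. OASL, an OAS-like antiviral protein, was the next with -1.58.

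The enzymes that attach and remove ISG15 were called higher in 4 of 7 genes and lower in 1, beside the 33.4% and 20.8% of all genes tested. With median-of-ratios scaling 3 were called higher and 1 lower, beside 2624 higher and 4193 lower of all 15042 genes. The median as deposited was 1.29, or -0.84 after Sertoli centring. UBE2L6, the conjugating enzyme, had 13.1, 14.5 and 17.1 FPKM in cattle-yak and 2.61, 3.27 and 3.24 in yak (log2 (foldchange) 1.97, adjusted p = 6.0e-06). USP18, which removes ISG15 and damps receptor signalling, had 1.61. ARIH1, a ubiquitin ligase and the most abundant of the list in yak but not in cattle-yak, had 53.8, 44.6 and 47.2 FPKM in cattle-yak and 117, 113 and 123 in yak, with a log2 (foldchange) of -1.26.

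Among negative regulators, 6 of 14 were called higher and 2 lower, or 42.9% and 14.3% beside the 33.4% and 20.8% of all genes tested. With median-of-ratios scaling 3 were called higher and 3 lower, beside 2624 higher and 4193 lower of all 15042 genes. The median as deposited was 0.92, or -1.21 after Sertoli centring. NLRX1 (2.15) and the phosphatase Ptpn11 (1.77) had the largest log2 (foldchange), and PIAS4 (-1.26) and Pias1 (-1.04), which inhibit STAT proteins, the lowest of those called. PIAS2, the most abundant, had 94.1, 92.6 and 91.5 FPKM in cattle-yak and 196, 184 and 171 in yak, and its log2 (foldchange) of -0.98 stayed just inside the threshold. It was called without Y3 (-1.03) and with median-of-ratios scaling (-1.60).

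Antigen presentation and interferon gamma targets were called higher in 17 of 25 genes and lower in 1, beside the 33.4% and 20.8% of all genes tested. With median-of-ratios scaling 10 were called higher and 2 lower, beside 2624 higher and 4193 lower of all 15042 genes. The median as deposited was 1.28, or -0.85 after Sertoli centring. B2M (ENSBGRG00000009951), the light chain of class I molecules, had 296, 388 and 603 FPKM in cattle-yak and 127, 150 and 83.0 in yak (log2 (foldchange) 1.81 ± 0.29, adjusted p = 4.4e-04). A second B2M gene (ENSBGRG00000009835) had 3.10, and TAPBP, which loads peptides, had 2.31. GBP6 (ENSBGRG00000002508), a guanylate-binding protein, was the 1 called lower, with a mean of 2.52 ± 0.418 FPKM (SD, n = 3) over the cattle-yak and 9.40 ± 2.27 over the yak (log2 (foldchange) -1.55). Another gene with the symbol GBP6 (ENSBGRG00000003017) was called higher, with a log2 (foldchange) of 1.16 (0.86 and not called with median-of-ratios scaling), and was named after its values were seen. Reads of near-identical copies, as genes that share a symbol can be, may have been split between them.

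Over the 8 pathway lists together, 62 of 118 tested genes were called higher and 8 lower, beside the 33.4% and 20.8% of all genes tested. With median-of-ratios scaling 43 were called higher and 11 lower, beside 2624 higher and 4193 lower of all 15042 genes. Most of the 8 interferon response genes also share an annotation. The GO term defense response to virus stands on 7 of them, the exception being IFI44, and on 137 genes of the table, those 7 included. Of these 137, 115 were tested, 54 were called higher and 10 lower, with a median log2 (foldchange) of 0.95 that was -1.18 after Sertoli centring. This term was chosen after the values were seen, and no other term stood on as many of the 8 genes. Its counts include the interferon response genes, so they are no independent result.

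**Figure D4:**
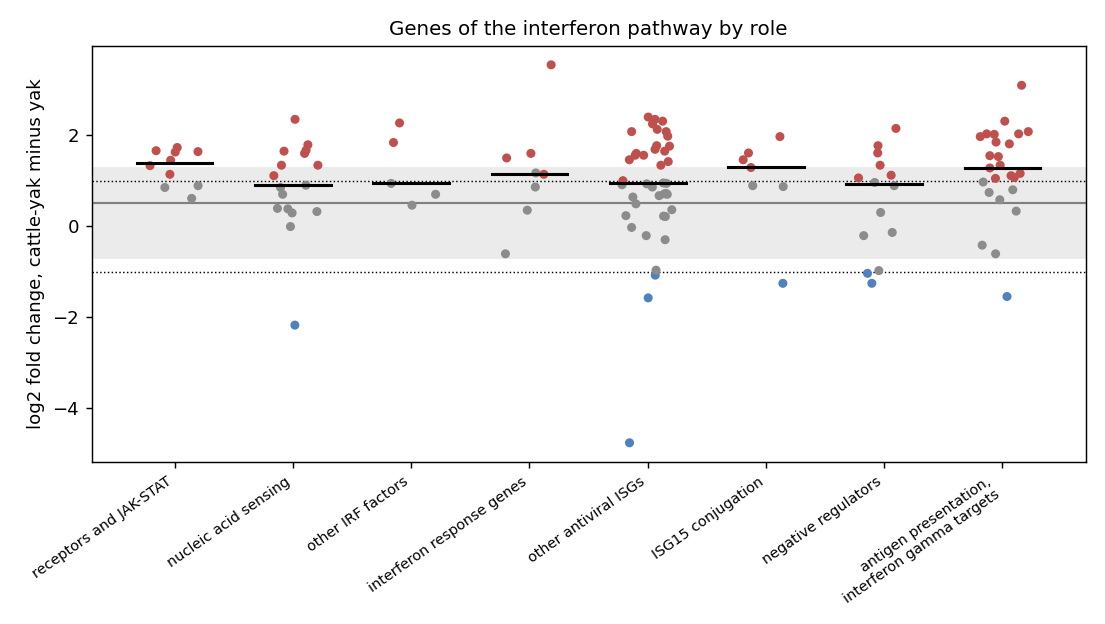
log2 (foldchange), cattle-yak minus yak, of the tested genes of each pathway list, with 1 point per gene. Red points were called higher, blue points lower and grey points were not called; black lines are list medians (1.39 for receptors and JAK-STAT and 1.16 for the interferon response genes), and the grey band and line are the quartiles and the median (0.51) of all genes tested. Points spread sideways only for display, and after Sertoli centring every list median is below 0.

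Markers of other cells moved with the groups, and their part in the differences above was not tested. The counts of calls below stand beside the 33.4% higher and 20.8% lower of all genes tested. All 15 tested Sertoli marker genes were called higher, and their summed levels were 3157, 3214 and 3442 FPKM in C1, C2 and C3 and 723, 660 and 722 in Y1, Y2 and Y3, led by CLU with a mean of 1128 ± 105 in cattle-yak and 292 ± 5.11 in yak. All 8 Leydig marker genes were called higher, with sums of 12471, 11911 and 10468 FPKM against 4889, 3352 and 3541, nearly all from INSL3, which was not called with median-of-ratios scaling (0.93) or quantile normalization (0.85). All 7 myoid marker genes were called higher, with sums of 611, 818 and 622 FPKM against 162, 131 and 136, led by Acta2. These directions hold for the values as deposited, and after Sertoli centring the list medians were 0.09, -0.23 and -0.21. The 0.09 of the Sertoli markers lies near 0 by construction, since the centring uses the same 15 genes. Spermatogonia markers were called higher in 6 of 8 genes (sums of 321, 384 and 377 FPKM against 77.4, 73.4 and 90.9, UCHL1 leading). Spermatocyte markers were called higher in 1 and lower in 1 of 8 genes, or 12.5% each, under both shares of all genes (360, 206 and 341 FPKM against 409, 397 and 429, Piwil1 leading in yak but not in cattle-yak). All 9 spermatid marker genes were called lower, with sums of 111, 45.8 and 22.6 FPKM against 10970, 9499 and 11489, led by TNP1.

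The immune marker lists held calls in both directions. Of 9 tested macrophage markers, 5 were called higher and 2 lower, and the summed levels overlapped between the groups at 138, 183 and 196 FPKM in cattle-yak and 140, 154 and 115 in yak. The most abundant in cattle-yak, though not in yak, was C1QB with 48.3, 66.3 and 77.4 FPKM in cattle-yak and 15.8, 25.0 and 10.9 in yak (log2 (foldchange) 1.88). AIF1 and CD14 were called in the other direction, with -3.78 and -1.52, and MARCO was listed at 0 in 4 of the 6 animals. Of 12 tested lymphocyte markers, 4 were called higher and 2 lower. These are 33.3% and 16.7%, beside 33.4% and 20.8% of all genes tested. Those called higher were PTPRC (ENSBGRG00000016494, 1.67), CD2 (ENSBGRG00000008942, 1.13), CD3E (1.09) and PRF1 (1.03). CD79A (-1.28) was among those called lower. The sums of the list were 37.2, 67.8 and 53.0 FPKM in cattle-yak and 231, 43.3 and 25.4 in yak. The high sum of Y1 came from CD247, the most abundant by the mean over the 6 animals through this library alone, with 194 FPKM in Y1 and 4.82 and 2.48 in Y2 and Y3. Its log2 (foldchange) was -1.27 (adjusted p = 0.387) and became 0.54 without Y1. CD79B was at or near 0 in both groups, listed at 0 in every cattle-yak and with 0.0708, 0.0355 and 0 FPKM in yak.

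Of 6 tested granulocyte and mast cell markers, 1 was called higher and 3 lower, beside the 33.4% and 20.8% of all genes tested, with sums of 38.4, 35.2 and 43.0 FPKM in cattle-yak and 76.7, 70.2 and 75.7 in yak. S100A12 led in yak but not in cattle-yak, with 1.06, 0.805 and 0.930 FPKM against 53.1, 44.2 and 48.2. KIT, which spermatogonia and Leydig cells also express, was the 1 called higher (1.72). Endothelial markers were called higher in 4 of 9 genes and lower in 1, VWF (-1.85), beside the same shares of all genes, with sums of 72.3, 79.0 and 52.1 FPKM against 44.3, 37.8 and 44.6 and CLDN5 as the most abundant in cattle-yak but not in yak. CLDN5 was not called with median-of-ratios scaling (0.64) or quantile normalization (0.93). The share of immune or endothelial RNA in the interferon response genes was not tested.

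The 5 genes whose pattern over the 6 libraries was nearest to the mean pattern of the 4 called interferon response genes were SSPN, HNRNPA2B1 (ENSBGRG00000016599), S1PR5, KCNJ4 and RPL27A (ENSBGRG00000016481). Their Euclidean distances, on log2 (FPKM + 1) centred per gene, were 0.26, 0.34, 0.39, 0.42 and 0.45, against 0.60 for IFI44, 0.64 for IRF9, 1.02 for MX2 and 2.05 for IFI6 (ENSBGRG00000011996). The table gives no description of the HNRNPA2B1 and RPL27A genes, so they are known by symbol only. The HNRNPA2B1 gene had 15, 4 and 1 fragments in Y1, Y2 and Y3. SSPN, the sarcospan of the membrane complex of muscle, had 7.77, 13.0 and 16.8 FPKM in cattle-yak and 3.24, 2.20 and 2.43 in yak. As in most of the interferon response genes, C1 was the lowest cattle-yak and C3 the highest, and the groups did not overlap. Both traits follow from the choice of SSPN by its likeness to that pattern.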

How the data were processed

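Testis RNA of 3 cattle-yak and 3 yak was sequenced, with 1 library per animal. The authors mapped reads with HISAT2 to the yak genome LU_Bosgru_v3.0 and computed FPKM with Cufflinks; the deposited FPKM were used as they stand. Columns were assigned by their labels, and the names C1 to C3 and Y1 to Y3 were given here in accession order within each group. The members and gene lists were chosen with earlier results of these data known. Genes with a mean of at least 0.5 FPKM (15042) were fitted on log2 (FPKM + 1) in limma 3.58.1 and R 4.3.3 (lmFit, eBayes with trend, two-sided), with Benjamini-Hochberg adjustment over all of them, and called at an adjusted p under 0.05 and a log2 (foldchange) beyond 1. The scale understates changes of low genes. Whole fragments were recovered for 17973 genes (tolerance 0.01), and 1 fragment on 1 kb was worth 0.0761 to 0.0895 FPKM. Python 3.11.15 with numpy 2.4.6, pandas 2.3.3, scipy 1.17.1 and matplotlib 3.10.9 did the rest. Sertoli centring shifts each library by the mean log2 value of 15 Sertoli marker genes.

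Genes named were every member and every receptor and JAK-STAT gene. Of each other pathway list they were the gene with the highest mean over the 6 animals and the 2 called genes with the largest rise and fall. Of each immune or somatic marker list they were the gene with the highest such mean and those called against the list. The 5 genes nearest in pattern were named too. MARCO, CSF1R, CD68, CD79B, PTPRC, CD2, CD3E, PRF1, IFNG, IFNW1, IFNA17, another GBP6 gene and the leading germ cell markers were named after their values were seen. The results of some genes under this rule are not reported here. Promoter motifs and sequences were not analysed here.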

Additional observations from a re-analysis of the deposited data

How the results depend on the processing

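The calls were recomputed with other pseudocounts, filters, scalings and fits and without each animal. Over 61 of the tested genes that are named, 889 of 962 alternative values kept their direction and side of the threshold. Of the rest, 20 lost the call, 18 gained it and 35 reversed. CSF1R, CD68, PTPRC, CD2, CD3E and PRF1 were left out of this count. The number of interferon response genes called higher was 4, and it was 1 with a minimum of 5 FPKM, where 2 were tested, 1 after Sertoli centring, and 3 to 6 when an animal was left out. The number called lower was 0, and it was 1 with median-of-ratios scaling, 3 after Sertoli centring, 1 without a fold change threshold and 0 whichever animal was left out. Their median log2 (foldchange) of 1.16 became -0.97 after Sertoli centring and 0.73 to 1.59 without an animal. Over all genes, 5023 calls higher became 2624 with median-of-ratios scaling, 39 after Sertoli centring and 7916 without a fold change threshold, and 3136 calls lower became 10630 after Sertoli centring. The pathway lists went from 62 called higher and 8 lower to 0 and 63 after Sertoli centring. The 3 scalings added after the data were seen for the arrangement of the cattle-yak have nearly equal factors in C1, C2 and C3, so they could not reorder these animals and say nothing about it.

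Sertoli centring reversed 34 of the 61 counted genes by its construction, since the markers used for it are higher in cattle-yak. The log2 (foldchange) was -0.96 for ISG15, -0.99 for MX2, -1.27 for RSAD2, -0.53 for IFI44, -1.78 for IFIT2 and -0.62 for IRF9. It was -0.50 for IFNAR1, -1.24 for IFNAR2, -0.47 for IFNGR1, -0.48 for IFNGR2, -1.28 for IL10RB, -0.68 for JAK1, -1.52 for JAK2, -0.99 for TYK2 and -0.79 for STAT2. It was -0.34 for Mavs, -1.43 for IRF3, -0.29 for IRF2, -0.16 for UBE2L6, -0.51 for USP18, -0.36 for Ptpn11, -0.32 for B2M (ENSBGRG00000009951), -0.97 for GBP6 (ENSBGRG00000003017), -0.25 for C1QB, -0.41 for KIT, -0.93 for CLDN5, -0.19 for CLU, -0.57 for INSL3 and -0.14 for UCHL1. Of the nearest genes, SSPN had -0.28, HNRNPA2B1 -0.28, S1PR5 -0.40, KCNJ4 -0.46 and RPL27A -0.19. Without each animal in turn, CD247 ranged from -2.36 to 0.54, the latter without Y1; the cause was not tested. The promoter motifs planned for these genes were not run. The groups held 3 animals each, and 8 to 69 fragments stood behind each value of ISG15.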
